A study of Gallus gallus with 6 samples.

Results

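LBH, HIC1, HHEX and the spalt family members SALL1, SALL3 and SALL4 are 6 developmental regulators of transcription, described here in chick retinal cells treated with retinoic acid (RA). They were found by symbol in the table of raw counts, where 6 of the 6789 genes are members. LBH, HIC1, HHEX and SALL3 were chosen because they were higher with RA, and SALL1 and SALL4 as relatives of SALL3. The difference between RA and control libraries is therefore what chose them. It is given below as a description with no test, and nothing is read from it.

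The RA group and the control group each held 3 libraries of Hes5.3-positive cells, sorted by flow cytometry from retinas of chick embryos on embryonic day 5. The RA retinas were cultured for 8 h in serum-containing medium with 2.5 µM RA, and the control retinas for the same time with the solvent DMSO. Each library pooled 2 retinas of different embryos, and its control came from the other eye of the same embryos, which makes pairs 1, 3 and 4. How Hes5.3 was made visible for the sort, and the strain of the embryos, are not given in the sources used here, and every group shares the culture, the serum and the sort.

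RA acts through nuclear receptors, which bind DNA as RAR and RXR pairs and switch nearby genes on when the ligand is present. CYP26 enzymes, themselves induced by RA, break it down. LBH is a small transcription cofactor named for its expression in limb bud and heart, and in mammalian cells it is a direct target of Wnt/beta-catenin signalling. HIC1 is a zinc finger repressor of the BTB class, known in mammals as a tumour suppressor that recruits CTBP proteins. HHEX is a homeodomain repressor that works with Groucho-type corepressors and is best known from the anterior endoderm, liver, blood and endothelium. The SALL proteins are zinc finger repressors that recruit the NuRD chromatin complex. In the mouse, Sall3 is needed by horizontal cells and cones of the retina, and SALL4 is known as a regulator of pluripotent cells.

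The libraries held between 19808063 and 27235633 counts, and 5041 genes passed the filter on low counts. All 11 retinal progenitor markers in the table passed it, and their summed level ranged from 10081 to 12453 CPM (counts scaled to library size) in RA libraries and from 8942 to 10602 CPM in control libraries. Over all genes tested, 54 had an adjusted p under 0.05 for RA (edgeR quasi-likelihood test with the pair as a block), 48 higher and 6 lower. The progenitor markers FZD5 (log2 ratio 0.41 ± 0.06 SE, edgeR adjusted p = 0.0029) and NR2E1 (0.39 ± 0.06, adjusted p = 0.00386) were among those higher. The sum of these markers is therefore not read as the content of progenitors. The fit without the block called 7. The labels do not say whether the pairs were cultured on separate days, so p-values measure the spread between these libraries only. In sorted bulk RNA, fewer cells expressing a gene and less RNA per cell cannot be told apart.

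LBH varied least of the 6 genes within the RA libraries and within the control libraries. Its level was 795, 713 and 773 CPM in the RA libraries of pairs 1, 3 and 4, against 410, 402 and 407 CPM in their control libraries. Every RA library lay above every control library, with a coefficient of variation of 5.56% in RA libraries and 1.04% in control libraries. The mean was 760 ± 42.3 CPM with RA and 406 ± 4.21 CPM in controls (SD, n = 3 each), a fitted log2 ratio of RA over control of 0.90 with a standard error of 0.07. Pair 1 had a fold of 1.94, pair 4 one of 1.90 and pair 3 the smallest, 1.77. The 95% counting interval (exact binomial) was 1.73 to 1.82 in pair 3 and 1.89 to 1.98 in pair 1. Reads carry no molecular identifiers, and such intervals cover counting error only, not the spread between pairs. In RefSeq's annotation of GRCg7b the span of LBH overlaps that of its neighbour LCLAT1, and the strand setting of the counting is not given, so reads of these genes may not be separable.

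HIC1 was close to the detection limit without RA. It had 81, 49 and 134 counts in the RA libraries of pairs 1, 3 and 4, against 4, 10 and 5 counts in the control libraries. These are 2.90, 2.51 and 5.74 CPM with RA, against 0.168, 0.460 and 0.189 CPM in controls, with no overlap. The fitted log2 ratio was 3.74 ± 0.63 (SE). The low control counts left the size uncertain: the fold was 30.3 in pair 4, with a counting interval of 12.7 to 94.9, and 5.46 in pair 3, with an interval of 2.73 to 12.1. HIC1 passed the filter on low counts through its RA libraries, since 1 of the 3 control libraries reached the level of the filter, so a gene with its counts could pass only by differing.

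HHEX was low in both groups. It reached 8.78, 16.3 and 14.2 CPM in the RA libraries of pairs 1, 3 and 4, against 4.72, 6.44 and 4.43 CPM in the control libraries. The RA libraries of pairs 3 and 4 stood well above that of pair 1, and all of them stood above the controls. The fitted log2 ratio was 1.31 ± 0.24 (SE). Its fold was 1.86 in pair 1 with a counting interval of 1.48 to 2.35, 2.52 in pair 3, and 3.21 in pair 4, where the lower bound of the interval was 2.59.

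The level of SALL3 was 19.1, 25.5 and 16.7 CPM in the RA libraries of pairs 1, 3 and 4, against 9.35, 7.27 and 9.99 CPM in the control libraries, with no overlap. The fitted log2 ratio was 1.19 ± 0.22 (SE). Pair 3 held both the highest RA value and the lowest control value, and its fold of 3.51 had a counting interval of 2.93 to 4.23, above the 1.43 to 1.97 around the 1.68 of pair 4. The pair with the smallest fold of SALL3, pair 4, was the one with the largest fold of HHEX. Without pair 3 the fitted log2 ratio of SALL3 was 0.89.

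SALL1 was slightly lower with RA in 3 of 3 pairs. It had 93.8, 103 and 92.0 CPM in the RA libraries of pairs 1, 3 and 4, against 110, 113 and 101 CPM in the control libraries. The groups overlapped, because the RA library of pair 3 lay above the control library of pair 4. The fitted log2 ratio was -0.17 ± 0.09 (SE), inside the range of -0.55 to 0.89 that held the middle 95% of all genes tested.

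SALL4 differed more between pair 1 and the other pairs than between RA and control. It had 76.7, 58.2 and 55.5 CPM in the RA libraries of pairs 1, 3 and 4, against 80.4, 59.8 and 63.5 CPM in the control libraries. Both libraries of pair 1 were above all the others, and the RA and control groups overlapped. The fitted log2 ratio for RA was -0.10 ± 0.10 (SE).

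**Figure D1:**
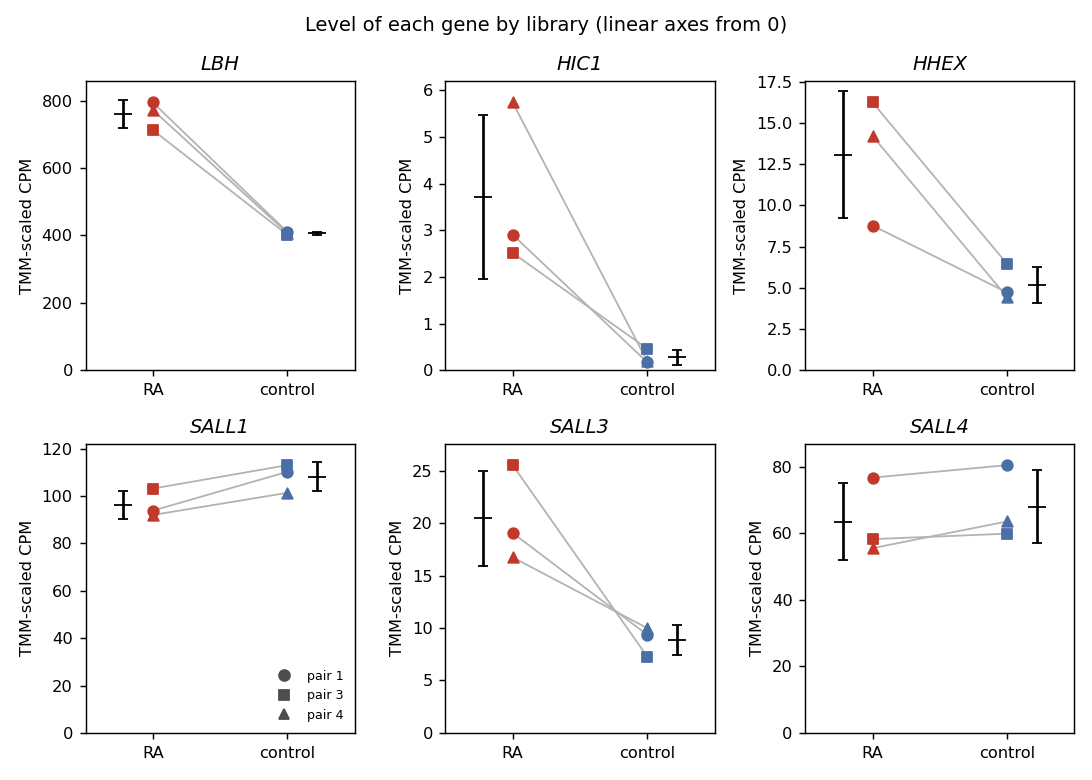
Level of each of the 6 genes by library in TMM-scaled CPM, on linear axes from 0, with RA left of control. Each symbol is 1 library, grey lines join the libraries of a pair, and bars are the mean ± SD of 3 libraries. LBH, HIC1, HHEX and SALL3 do not overlap between the groups, while SALL1 and SALL4 do, and both SALL4 libraries of pair 1 lie above the others.

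**Figure D2:**
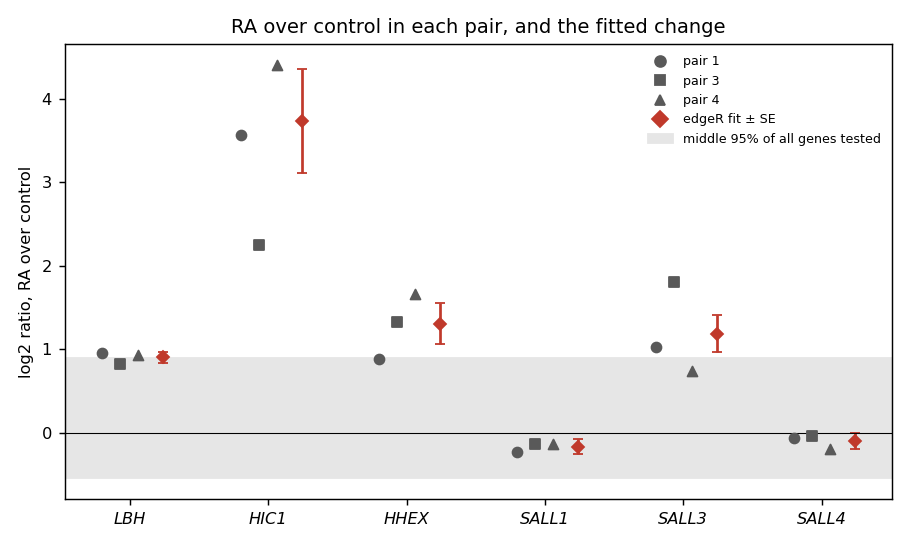
log2 ratio of RA over control for each gene, per pair (grey symbols) and as fitted by edgeR (red diamonds with standard errors), with the middle 95% of all 5041 genes tested as a grey band from -0.55 to 0.89. The ratios per pair are of CPM with a prior count of 2 added, which makes those of HIC1 smaller than the folds in the text; on this scale HIC1 spans 2.25 to 4.41 over the pairs and LBH 0.83 to 0.95, and SALL1 and SALL4 lie inside the band.

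Of the 6 genes, 4 were among the genes called higher with RA and none among those called lower, and 4 had every RA library above every control library. Over all genes tested 0.952% were called higher, 0.119% lower and 1.07% in either direction, and 4.42% had every RA library above every control library. The members were chosen on this contrast, so nothing is read from these counts. Without pair 3 the members called were LBH and HIC1, 2 genes, while 36 of all 5091 genes tested were called. Without the block it was LBH alone, while 7 of all 5041 genes tested were called. Nothing is read from these calls either. In the authors' deposited table the log2 ratios of the 6 genes are 0.90 for LBH, 3.75 for HIC1, 1.30 for HHEX, -0.17 for SALL1, 1.20 for SALL3 and -0.10 for SALL4. They rest on the same libraries.

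Differences between pairs were not used to choose the genes and could be tested in the same fit. SALL4 was the only member of the 6 that passed (edgeR quasi-likelihood F-test of the pair terms, adjusted p = 0.0404), while 13.6% of all genes tested did. Its mean over both libraries was 78.5 CPM in pair 1, 59.0 CPM in pair 3 and 59.5 CPM in pair 4, so the highest pair was 1.33 times the lowest. The call rests on pair 1: without it the adjusted p was 0.970, and without pair 3 it was 0.0609. Pair 1 also had the fewest sorted cells, 98000 for the RA library and 57000 for the control library, against 161000 to 200000 in the others. The part of cell number in this difference was not tested. For the other 5 genes the adjusted p of the same edgeR test was 0.667 for LBH, 0.715 for HIC1, 0.272 for HHEX, 0.528 for SALL1 and 0.946 for SALL3. The highest pair was 1.99 times the lowest for HIC1, at 2.96 and 1.49 CPM, and 1.68 times for HHEX, at 11.3 and 6.75 CPM.

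Ratios of raw counts within a library need no scaling between libraries. Those of the SALL genes hold the same contrast that chose SALL3, so they are given as values only. For every 100 SALL1 reads there were 20.3, 24.8 and 18.2 SALL3 reads in the RA libraries of pairs 1, 3 and 4, against 8.49, 6.44 and 9.86 in the control libraries. The mean ratio was 21.1 ± 3.35 with RA and 8.26 ± 1.72 in controls (SD, n = 3 each), and the groups did not overlap. SALL3 made up 10.1%, 13.7% and 10.2% of the reads of the 3 genes in RA libraries, against 4.68%, 4.04% and 5.72% in control libraries. SALL4 reads per 100 SALL1 reads overlapped, at 66.2 ± 13.6 with RA and 62.9 ± 10.0 in controls. The summed level of the 3 genes overlapped too, from 164 to 190 CPM in RA libraries and from 175 to 200 CPM in control libraries. Read shares between genes also carry transcript length and do not say which gene had more transcripts.

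The same ratio was taken for HIC1 and its closest relative HIC2, a second BTB zinc finger repressor, and it holds the contrast that chose HIC1. There were 2.56, 2.40 and 4.55 HIC1 reads per 100 HIC2 reads in the RA libraries of pairs 1, 3 and 4, against 0.161, 0.411 and 0.153 in the control libraries. HIC2 itself averaged 115 ± 10.9 CPM with RA and 113 ± 9.47 CPM in controls (SD, n = 3 each), a log2 ratio of 0.02 ± 0.09 (SE, edgeR adjusted p = 0.978). That HIC2 did not pass does not show that it was the same in both groups.

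**Figure D3:**
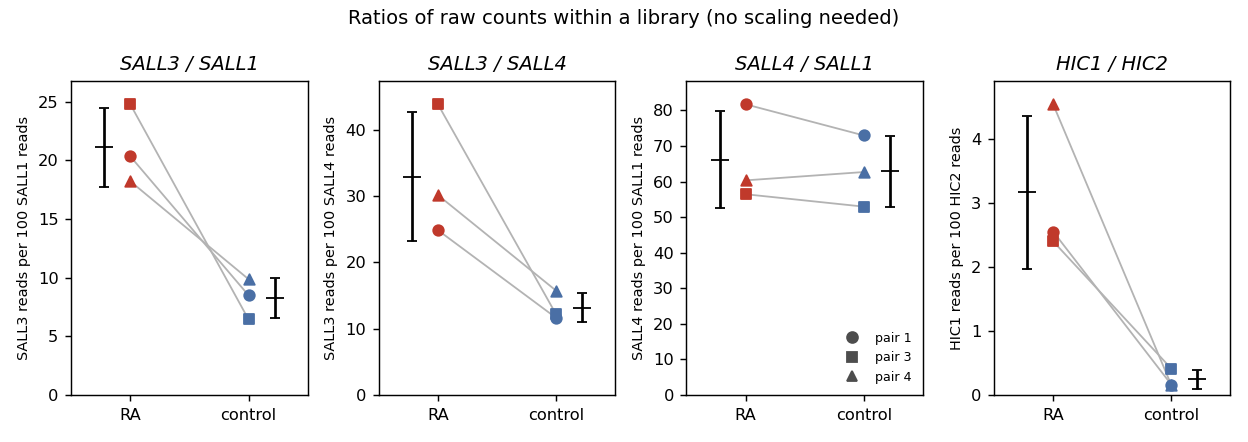
Ratios of raw counts within each library, as reads of 1 gene per 100 reads of another, on linear axes from 0, with RA left of control. Symbols are libraries, lines join pairs, and bars are the mean ± SD of 3 libraries. SALL3 against SALL1, SALL3 against SALL4 and HIC1 against HIC2 do not overlap between the groups, while SALL4 against SALL1 does.

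Genes next to the members were looked at by their order in RefSeq's annotation of GRCg7b, in which all 6 symbols were matched. This comparison was chosen after the members' values were seen. The counts were made on another build, so no coordinates are given. Among the 6 protein-coding genes on each side of each member, 22 of 72 were tested, and 2 passed for RA, both higher, while 0.952% of all genes tested were called higher. Both lie on the same side of HHEX. EXOC6, a subunit of the exocyst complex that tethers secretory vesicles, is the gene next to HHEX, and CYP26A1, which breaks down RA, is the third gene on that side. CYP26C1, which lies between them, was not analysed here.

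EXOC6 had 107, 131 and 105 CPM in the RA libraries of pairs 1, 3 and 4, against 71.9, 65.5 and 80.5 CPM in the control libraries. All RA libraries lay above the controls, and its log2 ratio was 0.65 ± 0.11 (SE, edgeR adjusted p = 0.00532, higher in 3 of 3 pairs). Without pair 3 it was 0.48 with an edgeR adjusted p of 0.0906, and without the block the adjusted p was 0.182. CYP26A1 had 2942, 2286 and 3902 CPM in the RA libraries of pairs 1, 3 and 4, against 81.1, 73.5 and 86.1 CPM in the control libraries, and its log2 ratio was 5.22 ± 0.10 (SE, edgeR adjusted p = 2.14e-14). The span of EXOC6 overlaps that of CYP26C1 in this annotation, and whether reads were counted by strand is not given, so reads of these neighbours may not be separable. HHEX overlaps neither of its neighbours there.

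On the other side of HHEX, KIF11, a mitotic kinesin, and MARCH5, a mitochondrial ubiquitin ligase, had log2 ratios of 0.12 ± 0.07 and 0.01 ± 0.07 (SE, edgeR adjusted p = 0.686 and 0.978). Each of the remaining 5 genes has 12 neighbours, of which 4 were tested for LBH, 5 for HIC1, 6 for SALL1, 1 for SALL3 and 2 for SALL4. None of those tested passed, and the others were not found in the table of raw counts. Among the tested ones were LCLAT1 beside LBH (0.10 ± 0.08, adjusted p = 0.766), TOX3 beside SALL1 (-0.13 ± 0.09, adjusted p = 0.730) and ZFP64 beside SALL4 (-0.03 ± 0.08, adjusted p = 0.957).

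**Figure D4:**
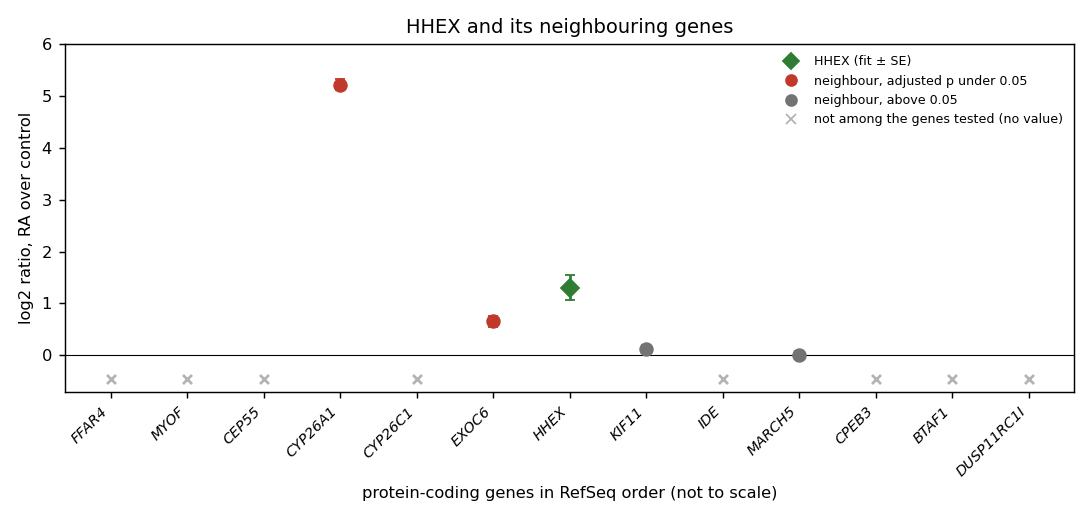
log2 ratio of RA over control (edgeR, ± SE) for HHEX and the 6 protein-coding genes on each side of it, in the order of RefSeq's GRCg7b annotation and not to scale. CYP26A1 at 5.22, HHEX at 1.31 and EXOC6 at 0.65 lie above the other tested genes KIF11 and MARCH5, and crosses mark genes without a value.

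Partners and targets of the members were compared next, in 4 lists drawn from general knowledge, mostly of mammals. The lists were chosen with earlier results of these data known. They hold 30 distinct tested genes, of which 3 passed for RA, or 10.0%, against 1.07% of all genes tested: SFRP1 was higher, and KDR and HDAC1 were lower. Nothing particular to these genes is read from that share. The median log2 ratio of all genes tested was -0.01. Listed genes that were not tested were mostly absent from the table of raw counts under the listed symbol, so they have no value.

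Of the 15 listed NuRD components, through which SALL proteins repress, 9 were in the table of raw counts and 8 were tested. Of these 8, 1 passed as lower and 0 as higher, and the median log2 ratio was -0.06. HDAC1, a histone deacetylase of the complex, had 386, 399 and 393 CPM in the RA libraries of pairs 1, 3 and 4, against 464, 479 and 508 CPM in the control libraries, without overlap. Its log2 ratio was -0.30 ± 0.07 (SE, edgeR adjusted p = 0.0448, lower in 3 of 3 pairs). That call was lost with median-of-ratios scaling (edgeR adjusted p = 0.0604), when pair 3 was left out (0.277), when pair 4 was left out (0.307) and with the pairing ignored (0.650). Its partner HDAC2 had a log2 ratio of -0.11 ± 0.07 (adjusted p = 0.689), and CDK2AP1, a small subunit, -0.13 ± 0.10 (adjusted p = 0.771). The NuRD genes MTA1 and RBBP4 had log2 ratios of 0.01 ± 0.07 and -0.01 ± 0.06.

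Of the 15 corepressors and reported targets of HIC1, 8 were in the table of raw counts and 7 were tested. Of these 7, 0 passed, with 0 at an unadjusted p under 0.05, by edgeR as by DESeq2 at the adjusted threshold. Their median log2 ratio was -0.07. The corepressor CTBP1 averaged 440 ± 43.9 CPM with RA and 460 ± 7.11 CPM in controls (SD, n = 3 each), and SIRT1, a deacetylase gene that HIC1 represses in mammalian cells, 84.4 ± 10.0 CPM with RA and 92.8 ± 7.61 CPM in controls. The largest values were those of the cell cycle inhibitor CDKN1A, at -0.33 ± 0.20 (SE, edgeR adjusted p = 0.691), and of LRP8, a reelin receptor, at 0.17 ± 0.15 (adjusted p = 0.818).

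Of the 15 corepressors and reported targets of HHEX, 6 were in the table of raw counts and 5 were tested. Those tested were VEGFA, KDR, FLT1, NRP1 and GSC, which include the VEGF receptors but none of the listed corepressors. KDR, the main receptor for VEGF, had 67.7, 89.4 and 97.4 CPM in the RA libraries of pairs 1, 3 and 4, against 98.0, 114 and 140 CPM in the control libraries. The groups just failed to overlap, while each pair moved the same way, with a log2 ratio of -0.47 ± 0.09 (SE, edgeR adjusted p = 0.0127). Without pair 3 its adjusted p was 0.0505, without pair 4 it was 0.0780, and without the block it was 1.000. FLT1, the other VEGF receptor of the list, had a log2 ratio of 0.49 ± 0.18 (adjusted p = 0.395), with 16.4 ± 2.07 CPM with RA and 11.7 ± 1.31 CPM in controls. The coreceptor NRP1 had -0.36 ± 0.10 (adjusted p = 0.131), and the ligand VEGFA 0.13 ± 0.09 (adjusted p = 0.730). The list's median was -0.01.

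Because HHEX and KDR also mark endothelium, markers of that cell type were set beside them. The summed level of the 10 endothelial markers in the table ranged from 84.6 to 120 CPM in RA libraries and from 114 to 163 CPM in control libraries, and most of it was KDR. Without KDR the sum was 15.8 to 23.0 CPM over the 6 libraries. CDH5, TAL1, ERG, VWF, SOX17 and SOX18, the 6 endothelial markers that did not pass the filter, each had at most 19 counts in any library. Of those that passed besides KDR, LMO2 had 197 to 323 counts per library, EGFL7 126 to 382 and FLI1 2 to 28. No endothelial marker was at 0 in every library. The 6 blood markers in the table summed to 1.85 to 2.74 CPM in RA libraries and 1.73 to 5.90 CPM in control libraries, most of it CD74, and HBE and GATA1 were at 0 in all libraries. Beside SALL1, which in mammals marks microglia, the 4 microglia and macrophage markers in the table summed to 4.41 to 12.0 CPM in RA libraries and 3.83 to 11.4 CPM in control libraries. Beside HIC1, the 14 mesenchyme markers summed to 276 to 479 CPM in RA libraries and 265 to 373 CPM in control libraries. Most of that sum was COL5A1, without which it was 17.3 to 28.7 CPM over the 6 libraries, and DCN was at 0 throughout. Pigment epithelium markers, 9 in the table, summed to 69.5 to 77.9 CPM in RA libraries and 54.0 to 68.0 CPM in control libraries without overlap. Most of the sum was MITF, and TTR was at 0 throughout. MITF alone overlapped, at 41.4 to 49.4 CPM in RA libraries and 38.6 to 43.2 CPM in control libraries. OTX2, also on this list, averaged 20.2 ± 2.46 CPM with RA and 13.9 ± 3.13 CPM in controls (SD). Its log2 ratio was 0.55 ± 0.19 (SE, edgeR adjusted p = 0.283). The 12 lens markers summed to 60.9 to 89.6 CPM in RA libraries and 56.2 to 65.6 CPM in control libraries, and the 8 ganglion cell markers to 362 to 486 CPM in RA libraries and 434 to 478 CPM in control libraries. The part of these cells in the members' levels was not tested.

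Wnt/beta-catenin signalling is the pathway that controls LBH in mammalian cells. Of its 21 listed targets and feedback genes, 13 were in the table of raw counts and 12 were tested. Of these 12, 1 passed as higher and 0 as lower, with a median log2 ratio of 0.04. SFRP1, a secreted Wnt modulator, had 669, 757 and 879 CPM in the RA libraries of pairs 1, 3 and 4, against 529, 598 and 639 CPM in the control libraries. Its log2 ratio was 0.38 ± 0.07 (SE, edgeR adjusted p = 0.00578, higher in 3 of 3 pairs). Without pair 3 the adjusted p was 0.0665, and without the block it was 0.936. MYC had a log2 ratio of 0.26 ± 0.07 (adjusted p = 0.121), and DESeq2 called it (adjusted p = 0.0251). The feedback gene AXIN2 had -0.23 ± 0.20 (adjusted p = 0.816), LEF1 0.04 ± 0.09 (adjusted p = 0.945) and TCF7 0.04 ± 0.20 (adjusted p = 0.978).

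**Figure D5:**
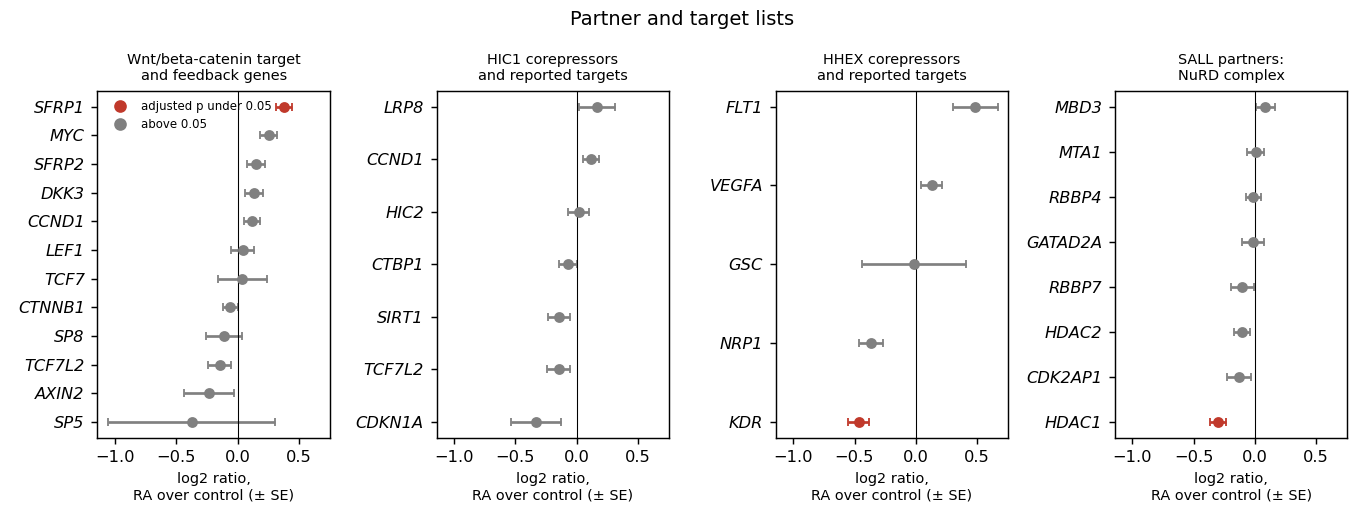
log2 ratio of RA over control (edgeR, ± SE) for the tested genes of 4 lists of partners and targets. Red points passed an adjusted p of 0.05, namely SFRP1 at 0.38, KDR at -0.47 and HDAC1 at -0.30, and grey points did not.

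The genes whose log2 CPM followed each member most closely over the 6 libraries were found among 4495 genes whose counts averaged 50 or more. The libraries fall into an RA and a control group, and a shared difference between them raises Pearson's r. The r of the deviations from the group means, given second, leaves that out. LBH was followed by TNFSF10, a death receptor ligand (r = 0.998, and 0.85 for the deviations), and by CYP26A1 (r = 0.997, and 0.69). HIC1 was followed by DHRS3, a retinaldehyde reductase gene (r = 0.986, and 0.81). HHEX was followed by POSTN, a matrix protein gene (r = 0.970, and 0.95).

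SALL3 was followed by EXOC6 (r = 0.994, and 0.96), the neighbour of HHEX described above, and by the anion exchanger gene SLC4A2 (r = 0.975, and 0.89). SALL1 was followed by GSTA2 (r = 0.995, and 0.99) and AKR1A1 (r = 0.990, and 0.98), which encode detoxifying enzymes. SALL4 was followed by SERPINH1, a collagen chaperone gene (r = 0.993 for both), and by NECAP2, an endocytic factor gene (r = 0.989, and 0.99). SERPINH1 passed the test for differences between pairs (edgeR adjusted p = 0.000346), and so did NECAP2 (adjusted p = 0.0283). Both were picked for following SALL4 over these same libraries, where SALL4 was highest in both libraries of pair 1. Their passing was therefore largely set by that choice, and nothing is read from it. SERPINH1 had 185, 102 and 91.1 CPM in the RA libraries of pairs 1, 3 and 4, against 184, 111 and 122 CPM in the control libraries, with pair 1 highest as in SALL4. Every member had genes with r of 0.970 or more among the 4495 candidates, over only 6 points. How often such values arise by chance was not tested. Spearman's rho names other genes: 1 of the 12 was again among the closest.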

How the data were processed

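RNA was sequenced from 6 libraries as single reads of amplified cDNA, per the labels' protocols. The submitters' processing notes name STAR 2.5.3a, HTSeq 0.6p1, edgeR 3.18.1 and the build galGal5, without their roles; the annotation and strand setting are not given in the sources used here. The authors deposited raw counts per gene symbol with no normalization, which were used for every test. From the authors' deposited table of log2 fold changes only the members' values were copied.

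filterByExpr kept genes that reached 10 counts, scaled to the median library, in 3 or more libraries, with a total of 15 or more. The main test was edgeR's quasi-likelihood F-test (edgeR 4.0.16, R 4.3.3) with TMM factors, the pair as a block and Benjamini-Hochberg adjustment over 5041 genes. The standard error is the fitted log2 ratio divided by the square root of F. CPM use TMM-scaled library sizes, and a prior count of 2 was added for correlations and plotted log2 ratios per pair, but not for pair folds. The design gives the pairing, and deviations from the group means correlated within pairs at 0.29, 0.25 and 0.34. No 2 replicates agreed within sampling noise (smallest chi-square per degree of freedom 47.5).

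The members and lists were chosen with earlier results of these data known. Named genes are the members, called list genes, the 2 largest changes per list and the 2 genes closest to each member. Outside this rule, and after their values were seen, neighbours, HIC2 and further list and marker genes were named. The fit was checked on simulated counts. Alternatives used limma 3.58.1 (voom), DESeq2 1.42.0, other scalings, filters and thresholds, no block, and each pair left out. Some of the genes closest to a member are not reported here. Sequences were not analysed here.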

Additional observations from a re-analysis of the deposited data

How the results depend on the processing

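The log2 ratios of the 6 members kept their sign in 65 of 65 alternatives and moved by less than the SD of the pair ratios. That limit is wide, since a mean of 3 values moves by less than their SD when 1 is left out. Scalings and filters hardly change a ratio, so nothing is read from this count. HIC1 had no value with a mean count of at least 50. Leaving out 1 pair at a time gave 0.875 to 0.939 for LBH, 3.17 to 4.51 for HIC1, 1.13 to 1.505 for HHEX, -0.186 to -0.137 for SALL1, 0.886 to 1.42 for SALL3 and -0.132 to -0.0469 for SALL4. The mean CPM of the members moved by less than 1 SD in 36 of 36 alternatives. These were other scalings only, and the TMM factors lay between 0.985 and 1.02, so that count was close to fixed in advance. The number of genes changed by RA, 54, was 85 with no filter on low counts, 88 with DESeq2, 12 at an absolute log2 ratio of at least 1, 36 to 81 without a pair, and 7 with no replicate block. Without that block 1 member (LBH) and 0 of the 3 list genes were called; without a pair it was 2 to 4 members and 0 to 3 list genes. The genes that differ between pairs, 685, were 389 to 520 without a pair, where fewer pair terms are tested. The adjusted p of SALL4 between pairs ranged from 0.0402 to 0.970 without a pair, and from 0.0176 to 0.0480 over the other alternatives, where it stayed called. Of the 12 genes closest to the members, Spearman's rho kept 1 and the deviations from the group means kept 0. By construction, ignoring the pairs counts their differences as error; for the other changes the cause was not tested. Depth limits HIC1 most, at 4 to 10 counts per control library.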
